A study of Mus musculus with 6 samples.

Results

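Striated muscle is built from sarcomeres, and 43 mouse genes for sarcomere proteins, sarcomere chaperones and factors that turn these proteins over were followed in the dorsal skin of mice with the tight skin mutation (TSK) and of their wild-type (WT) littermates. The genes were chosen by name, for their known roles, and all 43 were found among the 55291 genes of the deposited tables. All 43 also passed the low-count filter, which kept 19971 genes for testing. The set holds titin (1 gene), thick filament proteins (7), M-band proteins (3), thin filament proteins (9), Z-disc and cytoskeletal proteins (16), chaperones (3), and ubiquitin ligases and Kelch proteins (4).

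Bulk RNA was sequenced from shaved dorsal skin of 3 animals of each genotype, with 1 library per mouse, to compare the cell populations of the skin in the genotypes. The TSK mutation is an internal duplication of Fbn1, which encodes fibrillin 1 of the extracellular microfibrils, present in the germ line and so in all cells, and no further allele or treatment is given for either group. All 6 mice were C57BL/6 and 6 to 8 weeks old. The labels give that range of ages and call all of them female, whereas the methods of the study describe male mice of a single age at the upper end of that range. All 6 libraries held the Y-linked gene Ddx3y at 56.7 to 72.8 CPM and the female-specific transcript Xist at 2.57 to 4.58 CPM. Ddx3y at these levels goes with the sex given in the methods and not with the label. CPM is a gene's count divided by the total of its library, times 1000000. The labels name the tissue as skin and give no dissection of its layers.

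Sarcomeres are arrays of myosin thick filaments and actin thin filaments, the former held together at the M-band and the latter anchored at the Z-disc, with titin running from Z-disc to M-band. Chaperones fold and place myosin and other components, and ubiquitin ligases mark sarcomere proteins for the proteasome. In mouse skin, sarcomeres are known chiefly from the panniculus carnosus, a sheet of fast skeletal muscle that lies under the dermis, while the muscles that raise the hairs are smooth and lack them.

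Promoter sequence is shown for Trim63 and Klhl40, which had the most negative log2 fold changes among the 43 genes, so that the sequences before these genes can be read beside their values. RefSeq (GRCm38.p6) windows were at hand for 33 of the 43 genes, and the 250 bases before each start were searched on both strands for an E-box (CANNTG), a MEF2 site, a CArG box, a FOXO site (GTAAACA) and an MCAT element (CATTCC). Both windows below are read 5′ to 3′ on the strand of the gene (+), with the matches in capitals.
Trim63, chr4:134314870-134315119: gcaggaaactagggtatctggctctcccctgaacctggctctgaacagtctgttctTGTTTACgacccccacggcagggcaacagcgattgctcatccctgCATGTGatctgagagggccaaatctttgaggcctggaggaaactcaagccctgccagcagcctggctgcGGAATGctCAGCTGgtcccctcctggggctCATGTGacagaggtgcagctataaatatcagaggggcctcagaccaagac
Klhl40, chr9:121777357-121777606: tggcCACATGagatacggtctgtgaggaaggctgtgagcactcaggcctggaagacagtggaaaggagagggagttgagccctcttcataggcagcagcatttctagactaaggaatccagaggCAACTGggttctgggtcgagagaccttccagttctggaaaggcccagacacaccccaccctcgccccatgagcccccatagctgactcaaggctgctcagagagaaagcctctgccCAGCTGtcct
The Trim63 window lies in no annotated exon. It holds 3 E-boxes that begin at -149, -72 and -50, an MCAT match on the opposite strand at -80, and a FOXO match on the opposite strand at -194, counted from the start of transcription. FOXO factors are known activators of the atrophy ligases. Trim63 was the only 1 of the 33 genes whose window held these letters (3.03%), which is near the 3.54% of all 27025 genes with a window. No window was at hand for Fbxo32, another ligase gene known from muscle atrophy. The Klhl40 window lies over an exon of the antisense transcript Gm47108 and holds 3 E-boxes, at -246, -126 and -10. E-boxes were found for 29 of the 33 genes and for 69.3% of all genes, MEF2 sites for 5 and 3.42%, CArG boxes for 4 and 1.62%, and MCAT elements for 8 and 14.4%. A match is a stretch of letters and does not show that a factor binds there.

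Library totals ranged from 17561453 to 19219814 estimated counts, with 30448 to 31812 genes counted in a library. Fbn1 stood at 267, 289 and 262 CPM in the WT libraries and at 1538, 2284 and 2007 CPM in the TSK libraries, which separates the genotypes as labelled. Values in CPM here are those deposited by the authors, and log2 fold changes are TSK minus WT, from edgeR's quasi-likelihood test with TMM scaling. A gene is called lower or higher when its Benjamini-Hochberg adjusted p over all 19971 genes is below 0.05.

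Transcripts of the 43 genes made up a large part of these skin libraries. Their share of all counts was 13.5% in WT 1, 19.6% in WT 2 and 18.7% in WT 3, and it was 13.5% in TSK 1, 13% in TSK 2 and 12.1% in TSK 3. The WT 1 and TSK 1 libraries were alike in this share, and the other 2 WT libraries stood above all the rest. The mean share was 17.3% ± 3.29 (SD, n = 3) in WT mice and 12.9% ± 0.731 (SD, n = 3) in TSK mice. Titin alone took 61.5% to 62.8% of the counts of the set in every library. The 19 muscle fibre reference genes, which encode enzymes, channels, calcium-handling proteins and a membrane glycoprotein (Sgca) of muscle fibres and no sarcomere protein, had shares of 3.17%, 4.88% and 4.66% in the WT libraries and 3.32%, 3.11% and 2.57% in the TSK libraries. They thus followed the same order of libraries within the WT group. In bulk skin, fewer muscle fibres, less RNA of a gene per fibre and more RNA from other cells cannot be told apart, since a share also falls when other counts rise.

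**Figure D1:**
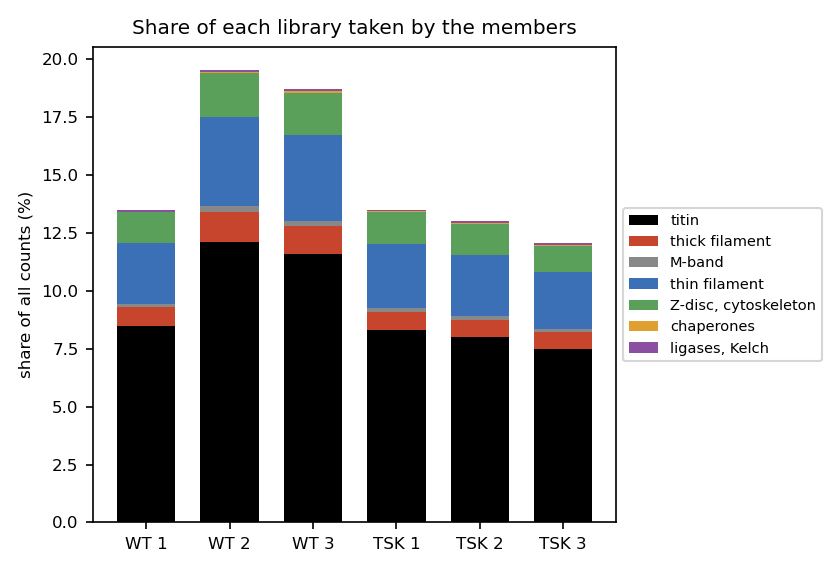
Stacked bars give the share of all counts (%) taken by the 43 genes in each of the 6 libraries, with the roles as colours. The WT bars reach 13.5%, 19.6% and 18.7%, the TSK bars 13.5%, 13% and 12.1%, and the black part, titin, is the largest in each.

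The order of the libraries was largely shared by the set. WT 1 had the lowest CPM of the 3 WT libraries for 37 of the 43 genes. WT 2 had the highest CPM of all 6 libraries for 25 genes, TSK 2 for 10, WT 3 for 6 and WT 1 for 2, and neither TSK 1 nor TSK 3 was highest for any gene. The ratio of the highest to the lowest library of a group had a median over the genes of 1.53 in WT mice and 1.27 in TSK mice.

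**Figure D2:**
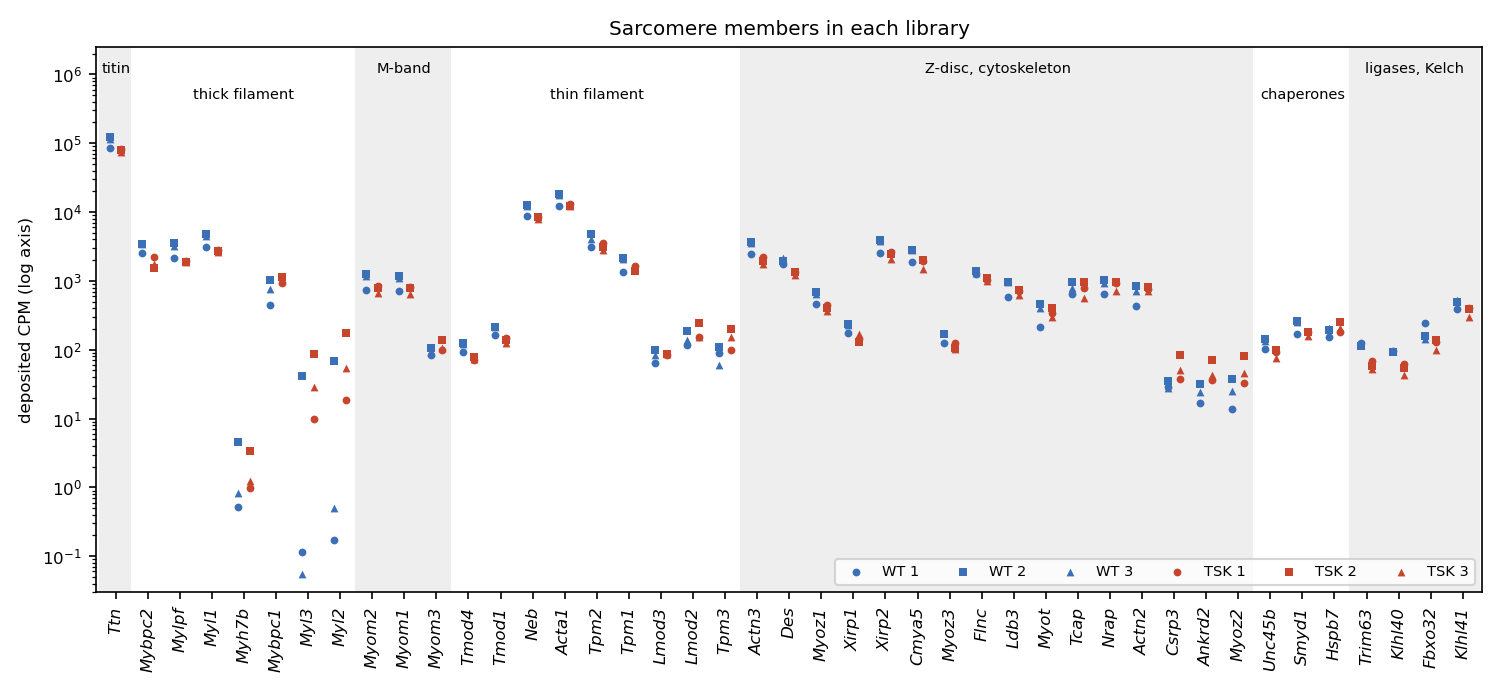
Each point is the deposited CPM (log axis) of 1 of the 43 genes in 1 library, with WT libraries in blue, TSK libraries in red and the shape giving the replicate. Titin lies highest, at 74542 to 121346 CPM, and the slow-type light chains Myl2 and Myl3 spread over the widest range within a genotype.

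Of the 43 genes, 3 were lower in TSK skin by edgeR (adjusted p under 0.05): the ubiquitin ligase gene Trim63, the Kelch gene Klhl40 and the thin filament capping gene Tmod4. Over all genes tested, 0.681% were called lower in TSK skin and 2.71% higher. None of the 43 was called higher by edgeR, also at an unadjusted p under 0.05, whereas 21 were lower at that unadjusted p (7.9% of all genes were lower at it and 12.1% higher). DESeq2 called 19 lower and 0 higher, and with it 1.85% of all 21978 genes were lower and 5.13% higher. The log2 fold change was below 0 for 35 of the 43 genes and for 53.0% of all genes, with a median of -0.67 over the 43, which was -0.80 over the 19 muscle fibre reference genes, -0.03 over all genes and 0.13 over the 43 when the libraries were scaled to the reference genes. That scaling moved the median of all genes to 0.69 (library size only moved it to 0.25, and that of the 43 to -0.38), and with it 0 of the 43 were called lower by edgeR, 0 of them also at an unadjusted p under 0.05, and 7 were called higher (0.12% and 12.9% of all genes). With library size only, 3 were lower and 1 was higher (0.466% and 8.44% of all genes), and with no low-count filter 13 were lower and 0 higher (0.997% and 2.99%, 3 of the 43 being higher at an unadjusted p under 0.05). At the thresholds of the study, an adjusted p under 0.01 and a fold over 2.5, none of the 43 was called by edgeR in either direction (0.0351% of all genes were lower and 0.255% higher). The study had applied these thresholds to DESeq2.

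The calls rested on few libraries. Without WT 1, 22 of the 43 were called lower, as were 2.66% of all genes. Without WT 2 only Trim63 was called lower (0.295% of all genes), and without WT 3 none was (14 at an unadjusted p under 0.05, and 0.0726% of all genes called). Without TSK 1, TSK 2 or TSK 3, Trim63 and Klhl40 were called lower (0.448%, 0.293% and 0.32% of all genes). The log2 fold changes of these 2 genes moved little, from -1.40 to -1.16 for Trim63 and from -1.25 to -0.95 for Klhl40. In both directions together, 678 genes were called with all 6 libraries, 1260 without WT 1 and 60 without WT 3.

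**Figure D3:**
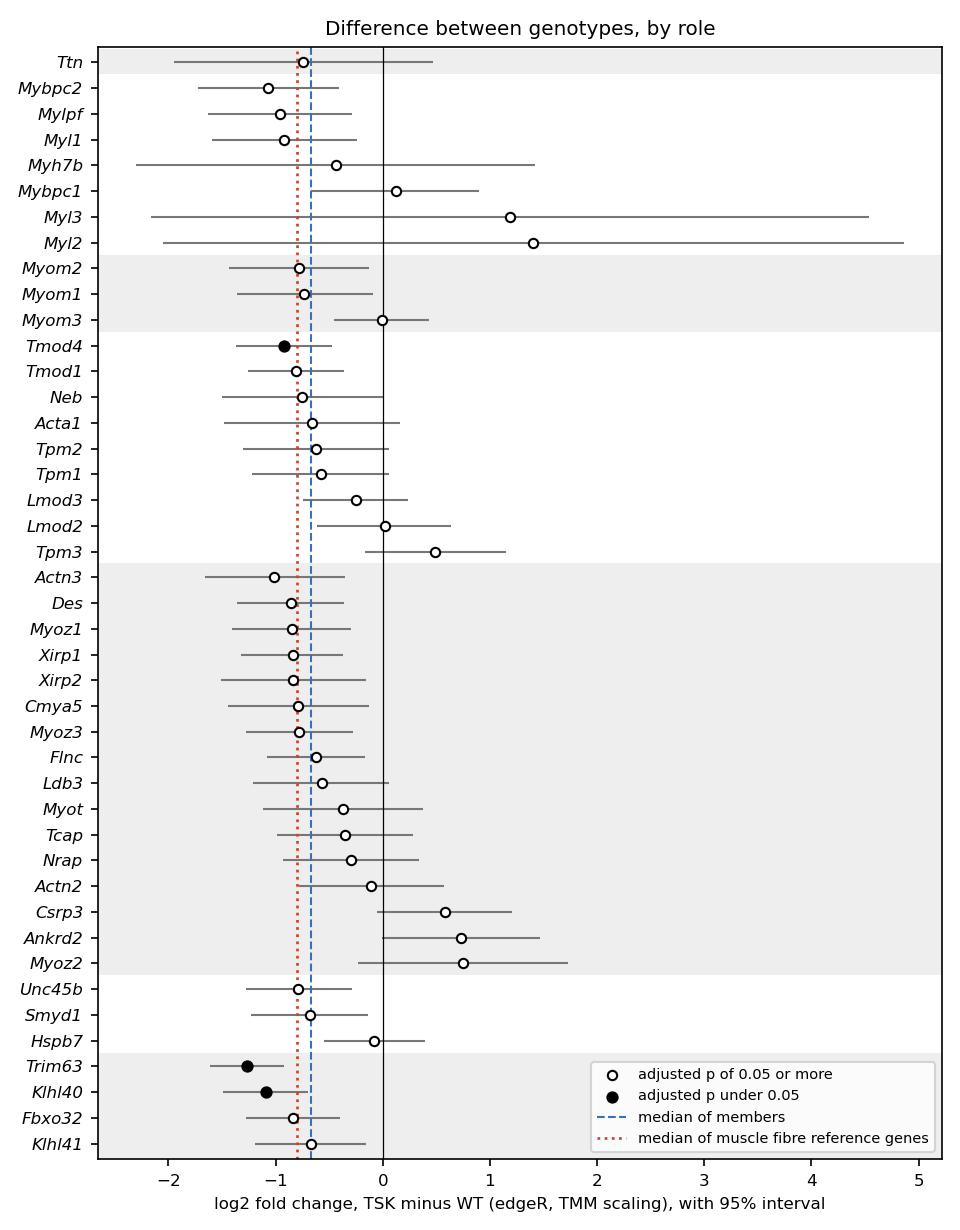
Points are log2 fold changes (TSK minus WT, edgeR with TMM scaling) with 95% intervals for the 43 genes grouped by role, filled where the adjusted p is under 0.05. The 3 filled points, Tmod4, Klhl40 and Trim63, lie left of 0 at -0.92, -1.09 and -1.27, and most genes lie near the dashed median of -0.67 and the dotted median of the muscle fibre reference genes, -0.80, both of which become about 0 (0.13 and 0.00) when the reference genes set the scale.

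The ubiquitin ligases and Kelch proteins were the role with the lowest median, -0.96, and 2 of the 4 were called lower. Trim63 (MuRF1, a muscle RING-finger ligase that marks myosin and other thick filament proteins for degradation) lies at chr4:134315120-134329629 on the + strand. It stood at 126.4, 113.9 and 115.8 CPM in WT 1 to 3 and at 68.2, 58.6 and 52.4 CPM in TSK 1 to 3. The lowest WT library was thus well above the highest TSK library, and WT 1, the lowest WT library for most of the set, was here the highest. Trim63 fell from 118.7 ± 6.76 to 59.7 ± 7.97 CPM (SD, n = 3 each), a log2 fold change of -1.27 (95% interval -1.61 to -0.92, SE 0.15, edgeR adjusted p = 0.0085).

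Klhl40, a Kelch protein that stabilises nebulin and leiomodin 3, lies at chr9:121777607-121783818 on the + strand. Its levels were 94.2, 92.7 and 95.4 CPM in WT mice and 62.5, 54.7 and 43.3 CPM in TSK mice. The WT libraries were nearly level and all above the TSK libraries, which differed more among themselves. The log2 fold change was -1.09 (95% interval -1.49 to -0.70, SE 0.17, edgeR adjusted p = 0.0184). The antisense transcript Gm47108 overlaps 21.6% of the exon bases of Klhl40, and whether the counting used strand is not stated. Gm47108 itself was listed at 0.38 to 0.786 CPM in the 6 libraries, and its part in the Klhl40 count was not tested.

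Fbxo32 and Klhl41 were not called by edgeR with all 6 libraries and TMM scaling. Fbxo32 (atrogin-1, the F-box subunit of a ubiquitin ligase known from muscle atrophy) was added to the genes described in full after its values were seen. It stood at 242.6, 159.1 and 143.1 CPM in WT mice and 128.2, 136.9 and 99.4 CPM in TSK mice, with a log2 fold change of -0.84 (edgeR adjusted p = 0.0562, SE 0.19). DESeq2 (adjusted p = 0.0036), upper quartile scaling, the replicate block and the fit with no low-count filter called it lower. WT 1 was far above the other WT libraries, and the lowest WT library lay just above the highest TSK library. Klhl41, a Kelch protein of the sarcomere close in structure to Klhl40, was at 388, 491 and 528 CPM in WT mice and 398, 385 and 300.3 CPM in TSK mice, with groups that overlapped and a log2 fold change of -0.67 (edgeR adjusted p = 0.146, SE 0.23). Per kilobase of exon, Klhl41 was the most abundant of the 4 in WT mice, at 185 CPM, against 41.8 for Trim63, 37.6 for Klhl40 and 26.0 for Fbxo32. Summed over the 4 genes, the share of all counts was 0.0851%, 0.0856% and 0.0882% in the WT libraries and 0.0657%, 0.0636% and 0.0495% in the TSK libraries. WT 1 was close to WT 2 and WT 3 in this sum because it held the most Fbxo32, while its Klhl41 was the lowest of the WT libraries.

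**Figure D4:**
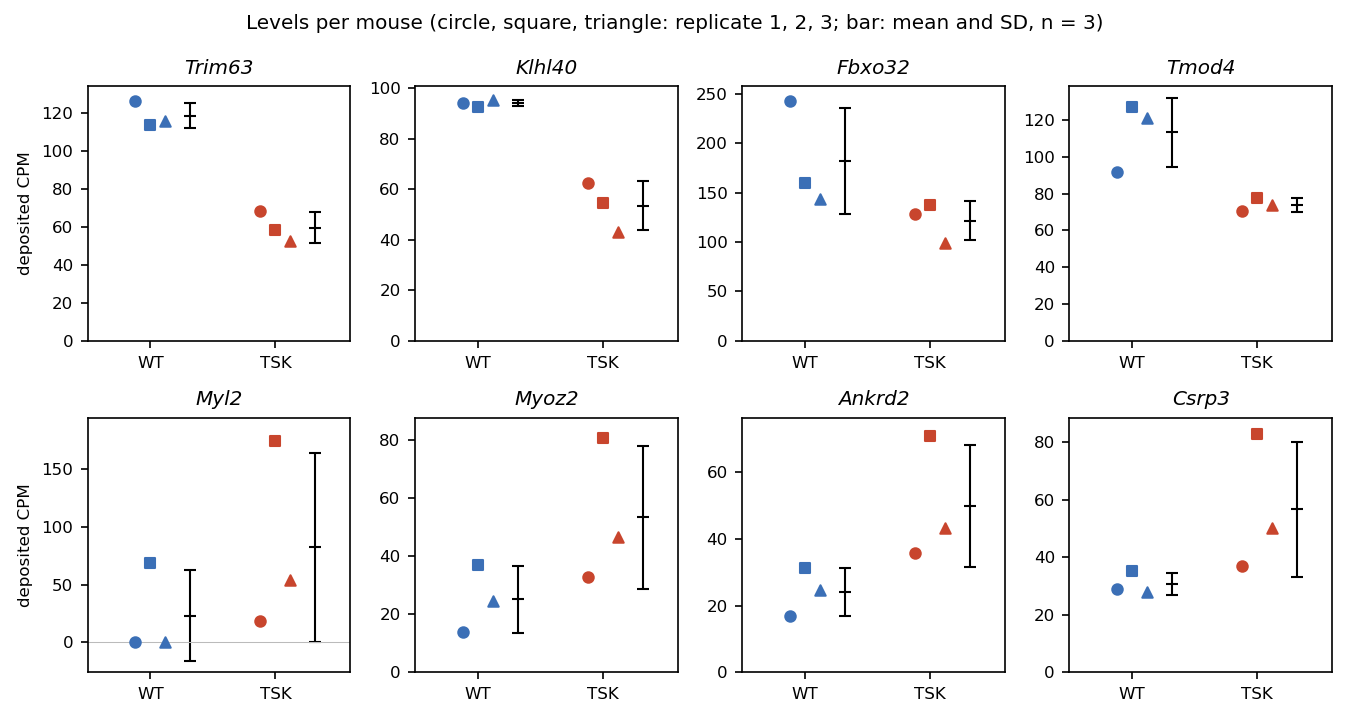
Each panel plots the deposited CPM of 1 gene per mouse, with the mean and SD (n = 3) beside each group. The WT libraries of Trim63, Klhl40, Fbxo32 and Tmod4 (upper panels) lie above the TSK libraries with the deposited library scaling, and the slow-type or stretch-linked genes Myl2, Myoz2, Ankrd2 and Csrp3 (lower panels) have TSK 2 as their highest library.

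Titin, the giant spring and template protein of the sarcomere, lies at chr2:76703980-76982547 on the - strand, with 116825 exon bases. It stood at 84580, 121346 and 115987 CPM in WT mice and at 82873, 80214 and 74542 CPM in TSK mice. All WT libraries were above all TSK libraries, with WT 1 only slightly so. The log2 fold change was -0.74 (95% interval -1.95 to 0.47, SE 0.53, edgeR adjusted p = 0.486), was 0.06 with scaling to the muscle fibre reference genes, and passed the threshold with DESeq2 (adjusted p = 0.0213). Per kilobase of exon, titin was at 919 CPM in WT mice, below the fast light chains Mylpf (2784) and Myl1 (1981) and far below skeletal actin Acta1 (10459), so its share of the counts goes with its length.

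Among the 7 thick filament genes none was called by edgeR, 3 were lower at an unadjusted p under 0.05, the same 3 were called lower by DESeq2, and the median log2 fold change was -0.44. The 3 were genes of fast fibres. Mylpf, the fast regulatory light chain, stood at 2125, 3534 and 3212 CPM in WT mice and 1919, 1878 and 1856 CPM in TSK mice (log2 fold change -0.96, edgeR adjusted p = 0.115, SE 0.29). Mybpc2, the fast form of myosin-binding protein C, stood at 2554, 3438 and 3471 CPM and at 2245, 1537 and 1757 CPM (-1.07, edgeR adjusted p = 0.0832, SE 0.29). In both genes every WT library was above every TSK library, and WT 1 was the closest to the TSK group. Myl1, the fast essential light chain, had a log2 fold change of -0.92.

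Mybpc1, the slow form of myosin-binding protein C, showed another order, at 440.4, 1036 and 772 CPM in WT mice and 924, 1147 and 988 CPM in TSK mice. TSK 2 was highest and WT 2 lay within the TSK range. Its log2 fold change was 0.12 (edgeR adjusted p = 0.891, SE 0.34) and became 1.00 with scaling to the reference genes (edgeR adjusted p = 0.00458).

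Myl2 and Myl3, the regulatory and essential light chains of slow fibres and heart, varied most between mice. Myl2 was at 0.171, 68.8 and 0.495 CPM in WT mice and at 18.4, 175 and 54.1 CPM in TSK mice. Myl3 was at 0.116, 40.8 and 0.055 CPM in WT mice and at 9.85, 87.2 and 28.5 CPM in TSK mice. WT 2 lay within the TSK range for both, and the other WT libraries held 1 to 9 counts of each. The log2 fold changes were 1.40 (edgeR adjusted p = 0.662, SE 1.52) for Myl2 and 1.19 (edgeR adjusted p = 0.706, SE 1.47) for Myl3. Without WT 2, both were called higher in TSK skin (1.09% of all genes were), with fitted log2 fold changes of 7.69 and 8.64 against WT libraries that were nearly at 0. Of 5 heart markers, Myh6 was at 0.138 to 2.07 CPM and Tnni3 at 0.44 to 1.75 CPM in the 6 libraries, Nppa and Myl7 were at 0 in all of them, and Nppb was at 0 except for 0.16 CPM in WT 2. Summed over the 5, the range was 0.578 to 3.35 CPM in WT mice and 1.10 to 2.33 CPM in TSK mice. Myh7b, a slow-type myosin heavy chain, was the least abundant gene of the set per kilobase, at 0.295 CPM in WT mice and 0.278 CPM in TSK mice.

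The 3 M-band genes, which link neighbouring thick filaments, held no call by edgeR or DESeq2, and 2 were lower by edgeR at an unadjusted p under 0.05. Myom2, the M-protein of fast fibres, stood at 741, 1244 and 1195 CPM in WT mice and 835, 777 and 677 CPM in TSK mice, with WT 1 inside the TSK range (log2 fold change -0.78, edgeR adjusted p = 0.173, SE 0.28). Myom1, the myomesin of all striated muscle, had a log2 fold change of -0.73. Myom3, myomesin 3 of slow and intermediate fibres, stood at 83.1, 105.5 and 92.6 CPM and at 100.6, 137 and 106 CPM, with groups that overlapped (-0.01, edgeR adjusted p = 0.988, SE 0.19). The sign of its fold change depends on the scaling, being 0.29 with library size only and 0.78 with the reference genes.

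Of the 9 thin filament genes, Tmod4 was called. Tmod4, tropomodulin 4, which caps the pointed end of thin filaments in skeletal muscle, lies at chr3:95124476-95129209 on the + strand. It stood at 91.8, 126.9 and 120.8 CPM in WT mice and at 70.3, 77.4 and 73.7 CPM in TSK mice. The TSK libraries were close together and all below WT 1, the lowest WT library. Tmod4 fell from 113.2 ± 18.7 to 73.8 ± 3.54 CPM (SD, n = 3 each), a log2 fold change of -0.92 (95% interval -1.37 to -0.47, SE 0.20, edgeR adjusted p = 0.0431). That p is close to the threshold, and the call was lost on leaving out any library other than WT 1, with adjusted p-values up to 0.163. It was also lost with limma-voom (adjusted p = 0.053) and with scaling to the muscle fibre reference genes (-0.11, edgeR adjusted p = 0.749).

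The other thin filament genes were not called by edgeR, and DESeq2 called Neb (adjusted p = 0.0213) and Tmod1 (adjusted p = 0.00526) lower besides Tmod4. Acta1, skeletal alpha-actin and the most abundant gene of the set per kilobase, stood at 12257, 18096 and 17844 CPM in WT mice and 13283, 12261 and 12129 CPM in TSK mice (log2 fold change -0.66, edgeR adjusted p = 0.351, SE 0.36). WT 1 lay within the TSK range, apart from the other WT libraries. Neb, nebulin, which runs along the thin filament, had a log2 fold change of -0.75, Tmod1 of -0.81, and the tropomyosins Tpm1 and Tpm2 of -0.58 and -0.62. For Tmod1, 32.6% of the exon bases are shared with Tstd2 on the opposite strand.

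Tpm3, a tropomyosin gene with a form in slow fibres, stood at 90.7, 109.8 and 60.8 CPM in WT mice and at 100.5, 200.4 and 150.6 CPM in TSK mice. Which cells of the skin its level came from was not tested. The groups overlapped, with TSK 2 and TSK 3 above all WT libraries (log2 fold change 0.49, edgeR adjusted p = 0.392, SE 0.29). Of its 50-base stretches, 23.2% also occur in other genes, mostly Tpm3-rs7, so its reads of 50 bases may have been divided. Lmod2, leiomodin 2, which starts and lengthens thin filaments, had 117, 185 and 139 CPM in WT mice and 155, 247 and 152 CPM in TSK mice, with a log2 fold change of 0.02 (edgeR adjusted p = 0.98, SE 0.27), and its relative Lmod3 one of -0.25.

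None of the 16 Z-disc and cytoskeletal genes was called by edgeR, 8 were lower at an unadjusted p under 0.05, DESeq2 called 8 lower, and the median log2 fold change was -0.60. Actn3, the alpha-actinin of fast fibres, stood at 2479, 3660 and 3577 CPM in WT mice and at 2238, 1950 and 1771 CPM in TSK mice (log2 fold change -1.01, edgeR adjusted p = 0.0976, SE 0.29). All WT libraries were above all TSK libraries. Actn2, the alpha-actinin of all striated fibres, had a log2 fold change of -0.11, which became 0.74 and passed the threshold with scaling to the reference genes (edgeR adjusted p = 0.0346). Further genes with negative log2 fold changes that did not pass by edgeR were Des (desmin, the intermediate filament around the Z-disc) at -0.86, Xirp1 and Xirp2 (Xin-repeat actin-binding proteins) at -0.84 each, and Flnc (filamin C) at -0.62. Tcap (telethonin, which binds the end of titin) had a log2 fold change of -0.35 and Ldb3 (a PDZ-LIM protein that binds alpha-actinin) one of -0.57. Cmya5 (myospryn), Myot (myotilin, a Z-disc protein that crosslinks actin) and Nrap (a nebulin-related protein of myofibril assembly) were at -0.79, -0.37 and -0.30, and 20.7% of the exon bases of Cmya5 lie opposite A630019I02Rik.

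In 3 Z-disc genes the log2 fold change was above 0, and in each TSK 2 was the highest library. Myoz2, calsarcin 1, the calcineurin-binding protein of slow fibres and heart, stood at 13.8, 36.9 and 24.7 CPM in WT mice and at 32.9, 80.7 and 46.5 CPM in TSK mice (0.75, edgeR adjusted p = 0.379, SE 0.43). Ankrd2, a stretch-responsive ankyrin protein of slow fibres, stood at 16.8, 31.3 and 24.6 CPM and at 35.9, 70.8 and 43.1 CPM (0.73, edgeR adjusted p = 0.257, SE 0.32). Csrp3, muscle LIM protein, stood at 29.0, 35.1 and 28.0 CPM and at 37.0, 82.7 and 50.3 CPM (0.58, edgeR adjusted p = 0.285, SE 0.28). WT 2 overlapped the TSK libraries only for Myoz2. The fast-type relatives Myoz1 and Myoz3 had log2 fold changes of -0.85 and -0.78, with edgeR adjusted p-values of 0.0976 and 0.0943.

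The 3 chaperone genes held no call by edgeR (2 were lower at an unadjusted p under 0.05), and DESeq2 called Unc45b lower (adjusted p = 0.0196). Unc45b, which folds muscle myosin, stood at 101.9, 143 and 135 CPM in WT mice and 93.8, 100.1 and 77.0 CPM in TSK mice, with WT 1 just above the TSK libraries (log2 fold change -0.79, edgeR adjusted p = 0.0888, SE 0.22). Smyd1, a methyltransferase that works with Unc45b in myosin assembly, had a log2 fold change of -0.68. Hspb7, a small heat shock protein that binds filamin C, stood at 155, 190.1 and 209.7 CPM and at 183, 255 and 208 CPM, with groups that overlapped (-0.08, edgeR adjusted p = 0.874, SE 0.20). Its fold change turns to 0.22 with library size only.

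The picture depended on the quantity that the libraries were scaled to. In deposited CPM, 16 of the 43 genes had all WT libraries above all TSK libraries (2.58% of all genes did) and 2, Ankrd2 and Csrp3, had all TSK libraries above (29.1%). With TMM scaling these were 20 (10.6%) and 0 (14.1%). With scaling to the muscle fibre reference genes, which sets those genes level on balance, whatever changed them, and raises genes of other cells of the skin too, they were 4 (0.265%) and 19 (39.6%). The 4 were Trim63, Klhl40, Mybpc2 and Actn3. Their log2 fold changes were then -0.56, -0.38, -0.28 and -0.21, with edgeR adjusted p-values of 0.18, 0.326, 0.267 and 0.378, and that of Tmod4 was -0.11 (0.749). The 7 genes called higher on this scale were Mybpc1, Ankrd2, Myoz2, Tpm3, Csrp3, Myl2 and Actn2, with log2 fold changes from 0.74 to 2.53, against 12.9% of all genes called higher. The scale sets the summed counts of the reference genes level. The most abundant of them was Atp2a1, the calcium pump of fast fibres (mean 17013 CPM in WT mice and 11969 CPM in TSK mice). Values on this scale are relative to that sum, and the balance of fast and slow fibres was not tested.

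**Figure D5:**
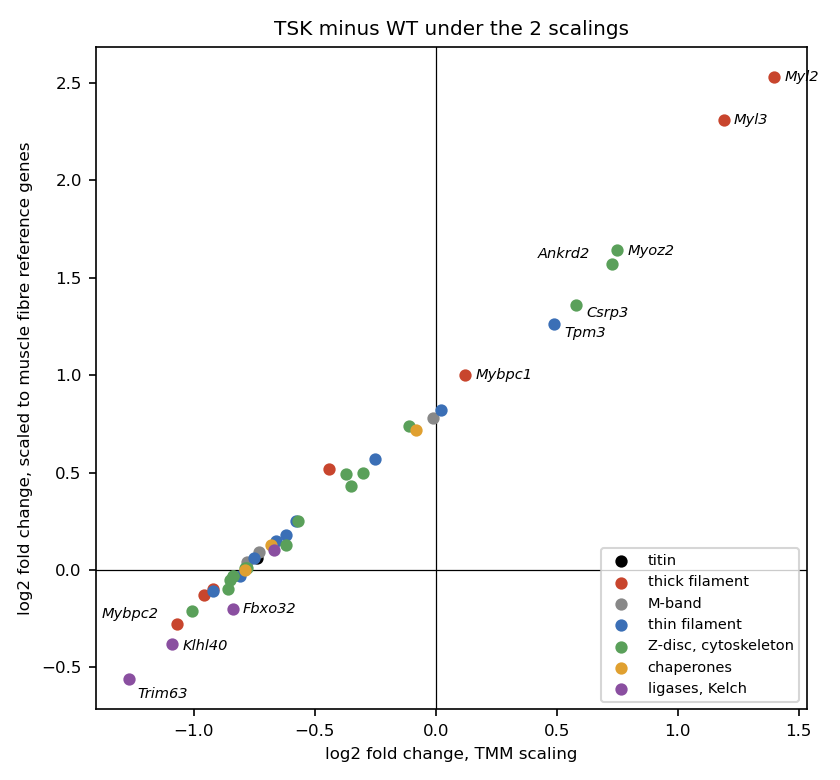
Each of the 43 genes is placed by its log2 fold change (TSK minus WT) with TMM scaling (horizontal) and with scaling to the 19 muscle fibre reference genes (vertical), coloured by role. Trim63 and Klhl40 lie lowest on both scales, at -1.27 and -0.56 and at -1.09 and -0.38. The labelled genes Myl2, Myl3, Myoz2, Ankrd2, Csrp3, Tpm3 and Mybpc1 lie at the upper right, with TMM-scaled values that did not pass the test.

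Further genes with roles near the sarcomere were taken from lists. Of 24 other sarcomere genes, 2 were called lower by edgeR, 0 were called higher (1 at an unadjusted p under 0.05) and the median log2 fold change was -0.56. DESeq2 called 9 lower and 1 higher (Myh2), and without WT 1 edgeR called 13 lower and 1 higher (Myh2). Without WT 2 it called 2 lower and 1 higher (Myh7). With scaling to the reference genes the counts turned to 1 lower (Mybph) and 5 higher (Myh1, Myh2, Tnnc1, Tnni1 and Tnnt1), with a median of 0.24. Mybph, myosin-binding protein H, fell from 237.8 ± 35.0 to 55.5 ± 24.9 CPM (-2.36, edgeR adjusted p = 0.0123). Pdlim3, a PDZ-LIM protein of the Z-disc, fell from 400.7 ± 18.6 to 206 ± 13.2 CPM (-1.24, edgeR adjusted p = 0.0105). Both calls were lost without WT 3, and that of Pdlim3 also with scaling to the reference genes (-0.50). Myh2, the myosin heavy chain of fast oxidative fibres, was at 551 ± 147 CPM in WT mice and 1642 ± 417 CPM in TSK mice (1.26, edgeR adjusted p = 0.067). It was called higher in 8 of 17 alternatives, among them library size only, limma-trend, no low-count filter and the replicate block.

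Of 28 tested chaperone and turnover partners, 3 were called lower by edgeR and 0 higher (2 at an unadjusted p under 0.05), with a median of -0.35. DESeq2 called 10 lower and 0 higher, and without WT 1 edgeR called 12 lower. With scaling to the reference genes 1 was lower (Mstn) and 3 were higher (Fbxo21, Foxo1 and Foxo3), with a median of 0.41. Mstn, myostatin, the secreted inhibitor of muscle growth, fell from 306.8 ± 9.78 to 120.7 ± 36.5 CPM (-1.62, edgeR adjusted p = 0.0148). The small heat shock genes Hspb2 and Hspb8 had log2 fold changes of -0.71 and -0.73 (edgeR adjusted p = 0.0348 and 0.0381), whose sign turned with scaling to the reference genes, to 0.03 and 0.00. Both also lost the call with library size only (edgeR adjusted p = 0.111 and 0.0849), with limma-trend at both pseudocounts and on leaving out any library other than WT 1, and Hspb8 lost it with the replicate block. Mstn lost it only without WT 3 among the 17 alternatives. The FOXO genes Foxo1 and Foxo3, whose products activate Trim63 and Fbxo32, had log2 fold changes of 0.26 and 0.31 (edgeR adjusted p = 0.395 and 0.199), which became 1.01 and 1.02 and passed the threshold with scaling to the reference genes (edgeR adjusted p = 0.0294 and 0.0297). Foxo3 was also called higher with library size only (0.58) and with limma-trend (0.59).

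Of 3 stretch-response genes, 2 were called lower by edgeR, with all 6 libraries and without each in turn. Ankrd1, a relative of Ankrd2 induced by stretch, stood at 19.2, 5.27 and 20.7 CPM in WT mice and at 1.48, 0.732 and 1.22 CPM in TSK mice (-3.96, edgeR adjusted p = 0.0104, and -3.32 with the reference genes). Every WT library was above every TSK library, whereas its relative Ankrd2 had all TSK libraries above the WT libraries in deposited CPM. Mustn1, a small nuclear protein of muscle growth and repair, fell from 64.8 ± 11.8 to 30.2 ± 3.12 CPM (-1.37, edgeR adjusted p = 0.00536), and lost the call with the reference genes (-0.67). Of 11 tested genes of developing muscle, 9 were called lower by edgeR (Actc1, Chrna1, Chrng, Myh3, Myh8, Myl4, Mymk, Myog and Tnnt2) and 0 higher (0 also at an unadjusted p under 0.05 and with DESeq2, which called 10 lower). The embryonic and perinatal myosin heavy chains Myh3 and Myh8 had log2 fold changes of -3.30 and -3.31. With scaling to the reference genes 6 were called lower, and without 1 library 4 (without WT 3) to 9 were. None of the 19 muscle fibre reference genes was called by edgeR with all 6 libraries and the low-count filter, and 16 were lower at an unadjusted p under 0.05. DESeq2 called 15 lower, and edgeR called 18 lower without WT 1 and 3 lower with no low-count filter.

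With TMM scaling few markers of other cells of the skin passed edgeR's test, although several sums did not overlap between the groups. The summed CPM of 6 fibroblast markers was 6324 to 9624 in WT mice and 20324 to 47280 in TSK mice (0 of the 6 called by edgeR, 4 higher at an unadjusted p under 0.05, 4 with DESeq2). That of 5 adipocyte markers was 92.0 to 125 and 289.9 to 1844, with TSK 2, the highest library for Myl2, Myl3, Mybpc1, Tpm3 and Myoz2, at 1844. Lep (leptin) and Plin1 (perilipin 1), with log2 fold changes of 3.50 and 3.16, were called higher (edgeR adjusted p = 0.0275 and 0.0422), both not without WT 2, without WT 3 or with limma-voom (adjusted p = 0.0755 and 0.0641), and Plin1 not without WT 1. All 5 were higher at an unadjusted p under 0.05. With DESeq2, with the replicate block and without each TSK library, 4 were called higher (Adipoq and Cidec added). Sums of 3 endothelial markers were 96.3 to 116 and 148 to 282 (0 called, 3 higher at an unadjusted p under 0.05, 1 with DESeq2), and those of 3 macrophage markers were 49.2 to 85.0 and 89.5 to 223 (0, 1 and 1). Summed over 4 keratinocyte markers the groups overlapped, at 2672 to 5301 and 2904 to 5188 (0, 1 and 0). The 7 smooth muscle markers summed to 175 to 206 and to 279 to 311, and 1 of them, Myh11 (smooth muscle myosin), was called higher (0.79, edgeR adjusted p = 0.0366), with the call lost on leaving out any library other than WT 1. Of the 7, 3 were higher and 1 lower at an unadjusted p under 0.05, and DESeq2 called 3 higher. With library size only, edgeR called 5 of the fibroblast, 5 of the adipocyte, 3 of the endothelial, 1 of the macrophage and 4 of the smooth muscle markers higher, and with scaling to the muscle fibre reference genes 6, 5, 3, 1 and 5. The part of these cells in the levels of the sarcomere genes was not tested.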

How the data were processed

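Total RNA of dorsal skin (TSK and WT, 3 mice each) was depleted of ribosomal RNA, made into stranded libraries and sequenced as single-end reads of 50 bases. Per the submitters' processing notes and methods, the reads were aligned with STAR to mm10 and quantified in Partek Flow 11.0 after bcl2fastq 2.19.1.403. The authors deposited estimated counts per gene (43.3% to 45.4% of non-zero values whole within 0.001, so a read that fits several genes may be divided) and CPM. Counts of 1000000 or more were deposited to 3 significant digits, so titin's levels come from CPM. Each sample's group came from its labels. The plan assumed raw counts, so these estimates were rounded to whole numbers.

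EdgeR 4.0.16 (R 4.3.3) was run with TMM, filterByExpr and the quasi-likelihood test on all 6 libraries, with Benjamini-Hochberg adjustment over 19971 genes. Each SE is the fold change (log2) over the root of F. Library totals were 17561453 to 19219814, and the effect of depth on the calls was not tested. The script was tested on simulated data. Alternatives were library size only, size factors from DESeq2 1.42.0, upper quartile, scaling to 19 muscle fibre genes, DESeq2, limma 3.58.1 (voom, and trend on log2(CPM + 1) and log2(CPM + 0.1)), no filter, at least 1 CPM in 3 libraries, a replicate block, the study's thresholds (adjusted p under 0.01 and fold over 2.5) and leaving out each library. Coordinates are 1-based in mm10, and overlaps and shared 50-base stretches come from GENCODE M21.

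The 43 genes and all lists were chosen with earlier results of these data known. Full values are given for each called gene, titin, the gene with the highest level per kilobase and those with the highest and lowest log2 fold change in each role (titin with the thick filament), and genes whose fold change differs in sign from the median. Genes outside the 43 are named from lists, where called or among the 3 with the largest fold change and a mean CPM of at least 1. Foxo1, Foxo3, the heart markers and genes called only under an alternative were added after their values were seen, and the remaining reference genes and cell markers are given as counts and sums. Libraries of a group differed beyond sampling noise in every pair (lowest chi-square per degree of freedom 8.02).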

Additional observations from a re-analysis of the deposited data

How the results depend on the processing

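The count of the 43 genes called lower in TSK skin was 3, and was 3 or 4 with library size only, DESeq2 size factors, upper quartile scaling (4), limma-trend at both pseudocounts and the CPM filter. It was 0 with scaling to the muscle fibre reference genes, 19 with DESeq2, 2 with limma-voom, 13 with no low-count filter, 0 by edgeR at the study's thresholds and 0 to 22 on leaving out 1 library. The count called higher was 0, and was 1 with library size only and with limma-trend at each pseudocount (Ankrd2), 7 with the reference scaling and 0 to 2 without 1 library. The median log2 fold change was -0.67, and was 0.13 with the reference scaling, -0.38 with library size only, -0.35 with limma-trend at both pseudocounts and -0.86 to -0.49 without 1 library. The difference in the share of all counts was -4.42 percentage points, and -6.30 to -3.26 without 1 library. Trim63 was called in 15 of 17 alternatives (adjusted p 4.63e-10 to 0.18), Klhl40 in 14 (1.31e-05 to 0.326), Tmod4 in 10 (0.000946 to 0.749) and Fbxo32 in 4 (0.0036 to 0.583).

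Signs were followed for 44 named genes (22 of the 43, and 22 others), of which Chrng could not be tested with the CPM filter. With the reference scaling, Acta1 was at 0.15, Hspb7 0.72, Klhl41 0.10, Myom2 0.04, Myom3 0.78, Ttn 0.06, Unc45b 0.00, Hspb2 0.03 and Hspb8 0.00. With other settings, Hspb7 was at 0.22 and Myom3 at 0.29 with library size only, both were at 0.22 and 0.28 with limma-trend at either pseudocount, Lmod2 was at -0.02 with upper quartile scaling, and Myom3 was at 0.00 with DESeq2 and with limma-voom. Without 1 library, Hspb7 ranged from -0.24 to 0.04, Lmod2 from -0.24 to 0.31, Mybpc1 from -0.18 to 0.52 and Myom3 from -0.15 to 0.17. The cause of these shifts was not tested, apart from the scaling itself.

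Same-numbered libraries had correlations of 0.0112, 0.167 and -0.0938 of their deviations from the group means. Whether the mice were paired by replicate number was not tested, as differently numbered libraries were not compared. With a replicate block, 4 of the 43 were called lower (Fbxo32 added), 2 higher (Ankrd2 and Myoz2), and Myom3 was at 0.01. Groups of 3 limit the precision, and an exact permutation test of 3 against 3 could not go below p = 0.1. Myl2 and Myl3, with 1 to 9 counts in WT 1 and WT 3, allow no firm fold change.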

Other observations

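Values are given for 4 further genes of slow fibres, which were chosen after their values were seen, for their likeness to Myl2 and Myl3, and support no pattern. Genes of the 43 with slow-fibre forms were not all alike in this, since Tpm3 and Myom3 had all WT libraries at 60.8 CPM or more and Myh7b had WT 2 as its highest library. The cells behind the Tpm3 level were not tested. Myh7, the slow myosin heavy chain, stood at 2.35, 541 and 2.12 CPM in WT mice and at 135, 980 and 470 CPM in TSK mice (log2 fold change 1.10, edgeR adjusted p = 0.768, SE 1.68). WT 2 was above TSK 1 and TSK 3, and the other WT libraries were far below all the rest, and without WT 2 edgeR called Myh7 higher in TSK skin. The slow troponin genes Tnnc1, Tnni1 and Tnnt1 had log2 fold changes of 1.00, 0.88 and 0.72, with edgeR adjusted p-values of 0.659, 0.648 and 0.704, and TSK 2 was the highest library for each.

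Myh4, the heavy chain of the fastest fibres, stood at 29402, 39322 and 37723 CPM in WT mice and at 23644, 19319 and 18329 CPM in TSK mice. It was also chosen after its values were seen. Every WT library was above every TSK library, and the log2 fold change was -1.09 (edgeR adjusted p = 0.182, SE 0.41), or -0.31 with scaling to the muscle fibre reference genes (edgeR adjusted p = 0.103). Myh4 was called lower with DESeq2, and by edgeR with no low-count filter and without WT 1.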
